A study of Drosophila melanogaster with 2 samples.

Results

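The Drosophila GATA factor genes pnr, srp, GATAe, GATAd and grn and ush, the gene of a protein that partners them, were examined for binding of tagged Org-1. They are 6 of the 13945 protein-coding genes of the chromosome arms X, 2L, 2R, 3L, 3R and 4. A binding summit was counted for a gene when it lay in the gene or within 5 kb of either end, in the gene models of Ensembl release 115 (BDGP6.54). Chromatin immunoprecipitation followed by sequencing (ChIP-seq) had been done on 2 biological replicates of whole embryos of mixed sex, aged 2 to 24 h, of a transgenic line that expressed Org-1 with green fluorescent protein at its C-terminal end. The description names an antibody against the fluorescent protein and the antibody field names org-1. Both libraries carry the transgene and belong to the same group, so there is no second condition, and a summit in whole embryos does not tell which cells were bound. Values come from a deposited list of optimal peaks, from candidate regions of the pooled replicates and from candidate regions of each replicate. Each candidate list holds 30000 regions and reaches down to a −log10 q value of 0.150 (pooled), 0.168 (replicate 1) or 0.210 (replicate 2). The pooled list is labelled as peaks and background, so a candidate is not by itself a called peak. The genes were chosen by family, but also selected on the signal of the optimal list, in which the strong ush summit stood out, so their signals and counts are given as a description without a test.

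GATA factors are zinc finger transcription factors that bind DNA at sites with the core GATA. Pnr acts in the dorsal ectoderm, the heart and the wing disc, Srp in blood cell (haemocyte), fat body and endoderm formation, and GATAe downstream of Srp in the midgut. Grn is known from the posterior spiracles and from motor neurons. Ush is a large zinc finger protein of the FOG family that binds GATA factors such as Pnr and Srp and modulates their activity. The role of GATAd is less well known. Org-1 is a T-box factor of muscle founder cells.

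The ush window held the second strongest of all 4434 optimal peaks, and the DNA around it and its closest neighbours is given first. Each run is the + strand of dm6, centred on the summit, 5′ to 3′, with capitals for matches on either strand to the words searched below, apart from the E-box word. The strongest summit lies at 2L:481065 and is shown with 100 bp on either side (chr2L:480965-481165), and the summits next to it in the same intron, at 480078 (chr2L:480028-480128) and 481929 (chr2L:481879-481979), with 50 bp on either side.
ush strongest summit: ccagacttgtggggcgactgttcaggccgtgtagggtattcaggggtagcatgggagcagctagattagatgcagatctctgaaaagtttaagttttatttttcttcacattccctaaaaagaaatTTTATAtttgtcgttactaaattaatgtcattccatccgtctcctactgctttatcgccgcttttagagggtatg
ush summit at 480078: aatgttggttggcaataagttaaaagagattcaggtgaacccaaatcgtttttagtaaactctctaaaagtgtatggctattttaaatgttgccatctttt
ush summit at 481929: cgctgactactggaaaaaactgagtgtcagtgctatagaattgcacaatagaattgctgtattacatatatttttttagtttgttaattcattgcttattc

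The summits below are the 2 of the highest signal in ush introns that hold a GATA word (chr2L:510594-510694 and chr2L:520771-520871), both summits upstream of srp, which also hold one (chr3R:15983807-15983907 and chr3R:15984595-15984695), and the summit between srp and GATAe, which holds none (chr3R:16006060-16006160).
ush summit at 510644: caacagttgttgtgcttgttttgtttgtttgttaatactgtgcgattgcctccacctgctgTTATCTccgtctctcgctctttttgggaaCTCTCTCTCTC
ush summit at 520821: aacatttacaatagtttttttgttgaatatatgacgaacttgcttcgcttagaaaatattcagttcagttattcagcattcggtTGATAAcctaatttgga
srp summit at 15983857: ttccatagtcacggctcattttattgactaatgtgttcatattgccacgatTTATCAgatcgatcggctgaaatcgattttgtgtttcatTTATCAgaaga
srp summit at 15984645: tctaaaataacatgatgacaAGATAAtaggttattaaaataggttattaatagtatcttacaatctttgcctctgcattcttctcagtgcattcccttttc
srp and GATAe shared summit at 16006110: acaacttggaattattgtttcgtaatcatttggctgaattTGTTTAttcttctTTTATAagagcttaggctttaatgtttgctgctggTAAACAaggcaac

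Of the 6 members, 4 had an optimal summit in their window (ush, srp, GATAe and grn), against 41% of all protein-coding genes. Membership of the list of genes with a summit is therefore common, and the members' count is not a result about them. The 4 genes held 20 distinct summits, 15 at ush, 3 at srp, 1 at GATAe that is also among the 3 of srp, and 2 at grn. No optimal summit lay in the windows of pnr and GATAd. In each replicate alone, among as many regions as the optimal list has, taken from the highest signal down, 5 of the 6 members had a summit, with GATAd added in both, where the share of all genes was 40.4% in replicate 1 and 40.5% in replicate 2. With all 30000 candidate regions of a list, the members with a summit were 5 in the pooled list (share of all genes 83.3%, GATAd lacking), 6 in replicate 1 (81.3%) and 6 in replicate 2 (86.6%).

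The number of candidates in each list differed widely among the members, whose windows run from 15.5 kb (GATAd) to 74.3 kb (ush). The ush window held 50 pooled candidates, 45 of replicate 1 and 53 of replicate 2. The srp window held 9, 11 and 13 in the same order, the GATAe window 8, 9 and 15, and the grn window 14, 13 and 11. The pnr window held 2, 2 and 6, and the GATAd window none in the pooled list, 4 in replicate 1 and 1 in replicate 2. Per 10 kb of window, ush had 2.02 optimal summits, srp 1.07, GATAe 0.499 and grn 0.454. Pooled candidates per 10 kb were 6.73 at ush, 3.99 at GATAe, 3.22 at srp, 3.18 at grn and 0.778 at pnr. In replicate 1 ush had 6.05 and GATAe 4.49 candidates per 10 kb, and in replicate 2 ush had 7.13 and GATAe 7.49. The higher candidate counts of ush thus go partly with its longer window. The optimal peaks are the pooled candidates with the highest signal and carry the same signal value in both lists, so those lists differ only in how far down they reach.

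**Figure D1:**
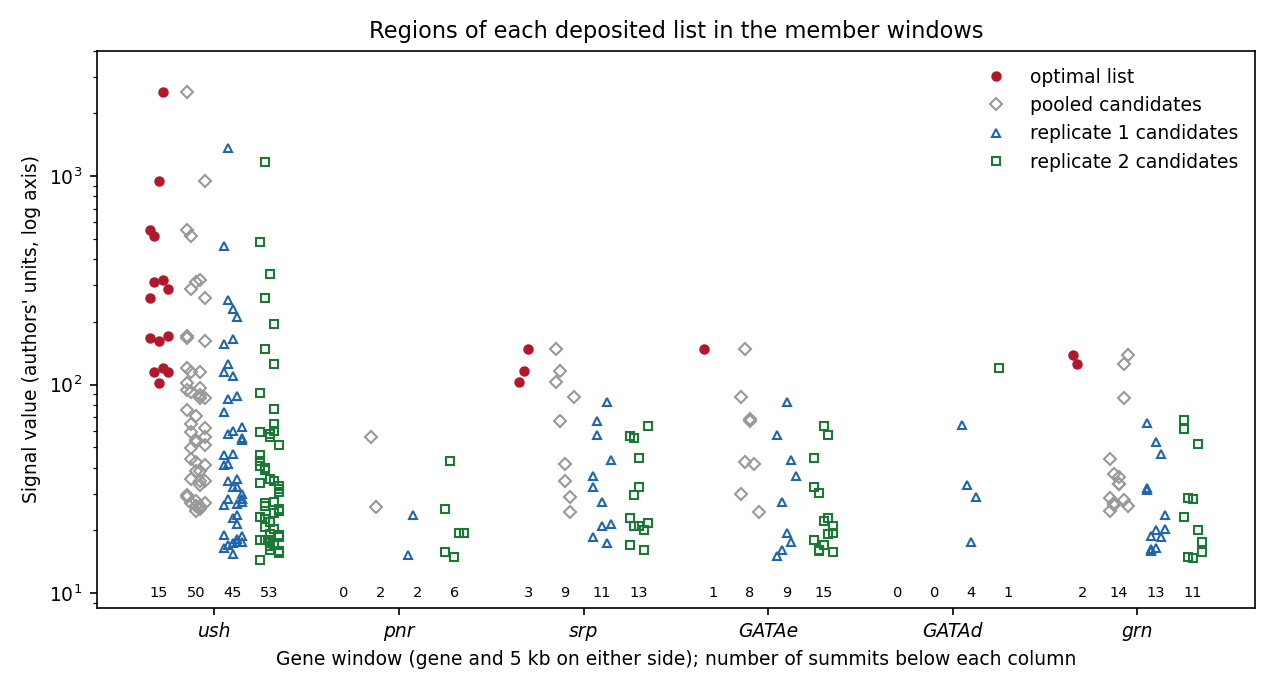
Signal value (authors' units, log axis) of every region whose summit lies in the window of each gene, for the optimal list, the pooled candidates and the candidates of each replicate, with the number of summits under each column. The ush columns reach above 1000 in every list, while no optimal summit of the other members exceeds 149.

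Signal values are those the authors deposited and rank regions within a list. The ush summit at 2L:481065, in a region of 535 bp from 480814 to 481348, had a signal of 2524 in the optimal list, where the values ran from 101 to 2560.05 with a median of 164. Its signal was 1360.5 in replicate 1 and 1167 in replicate 2 (mean 1264 ± 136, SD, n = 2). Its rank was 2 in the optimal list, 3 in replicate 1 and 2 in replicate 2. The replicate summits lay 10 and 3 bp to the left of the pooled one, so that all lists place it at nearly the same base. The peaks of rank 1 and 3 were close to it, at 2560.05 and 2446. Each was nearer to it than the 2 replicate signals of the ush summit were to each other. The scales differ, because a pooled signal is near the sum of both replicates. The signal was 15.4 times the median of the list.

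The strongest ush summit lies in intronic sequence close to the start of a second gene. The gene ush (FBgn0003963, 2L:476220-540560, + strand) has 4 annotated starts and 5 transcripts. The summit is 4845 bp downstream of the first start and falls in the first intron of the 2 transcripts that begin there, which is 49.1 kb long in one and 13.2 kb in the other. The gene cbt (FBgn0043364, 2L:476446-479688, − strand), which encodes a zinc finger transcription factor with a part in dorsal closure, lies within that intron, and its start is the nearest, 1377 bp away, with the summit upstream of it. The annotation alone thus gives the summit to both ush and cbt, and which gene it serves was not tested.

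**Figure D2:**
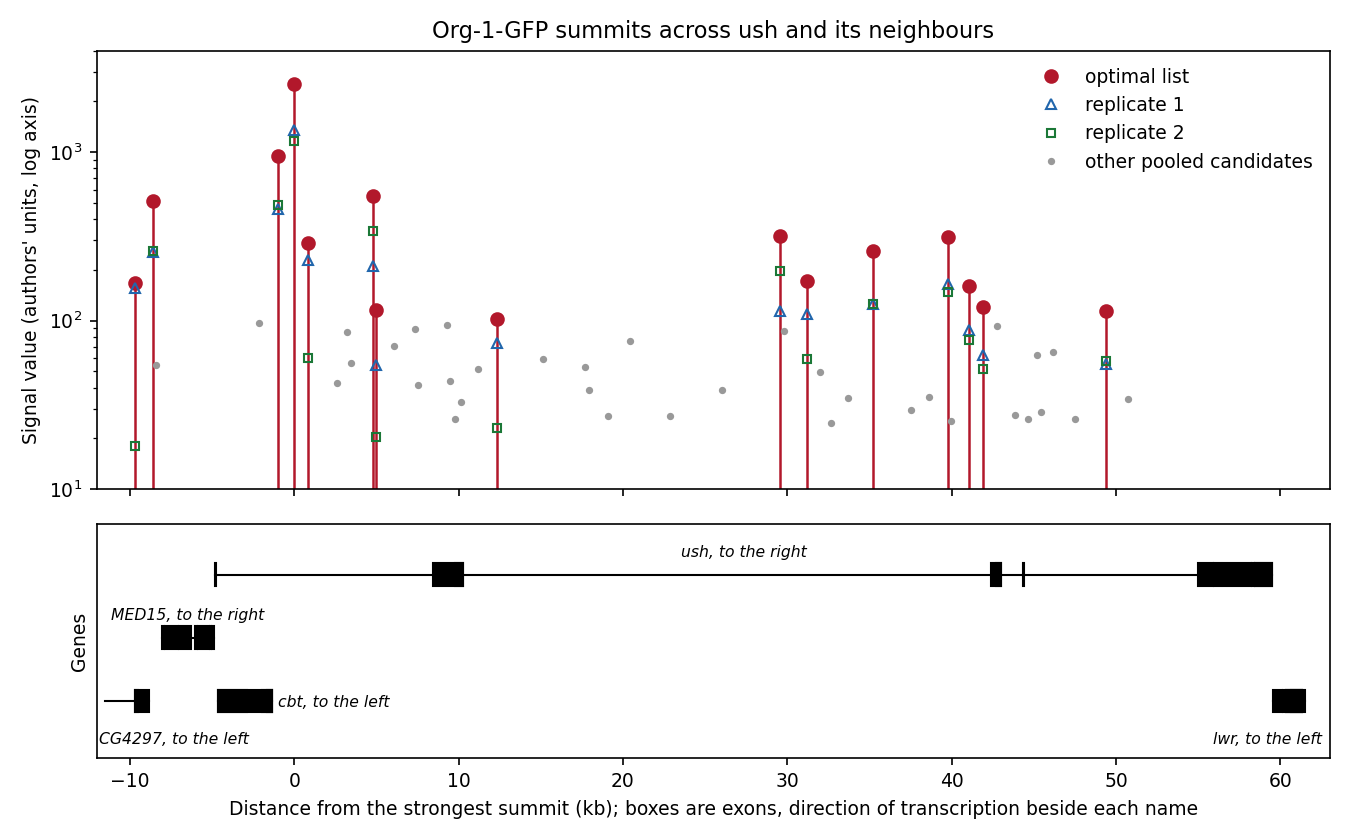
Signal value (log axis) of the 15 optimal summits in the ush window against their distance from the strongest one in kb, with the signal in each replicate and the other pooled candidates, above the exons of ush and the genes beside it. The summits fall into a left group around the strongest one and the start of cbt and a right group about 30 to 50 kb away. The replicate values lie close together at the strongest summit and at 480078, and apart at some of the others, both strong and weak.

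The summit at 480078, 390 bp upstream of the cbt start, was the second strongest of the window. Its signal was 950.05 (rank 66), with 462 in replicate 1 and 486 in replicate 2. The strongest summit was 2.66 times as high in the optimal list, 2.95 times in replicate 1 and 2.40 times in replicate 2. The summit at 481929, 864 bp to the right of the strongest one, had 288 (rank 904), with 229.98 in replicate 1 and 59.8 in replicate 2. The 3 summits nearest to the cbt start thus have their maximum in the middle in both replicates, and the right one differed 3.85-fold between the replicates.

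To the left of ush, 2 summits lay at the starts of CG4297 (FBgn0031258, 2L:458876-472200, − strand), a gene without an assigned role here. The summit at 472457 had a signal of 514 (rank 302), with 254 in replicate 1 and 260.3 in replicate 2. The summit at 471360 had 167 (rank 2165), with 156 in replicate 1 and 18.0 in replicate 2, a difference of 8.67-fold. Its presence in the window rests on the 5 kb limit, since it lies 4860 bp from the ush gene. Just outside the limit lay summits at 470781 (5439 bp, signal 172) and 468909 (7311 bp, signal 291), both nearest to a CG4297 start. MED15 (FBgn0027592, 2L:473013-476170, + strand), a Mediator subunit gene, ends close to the first ush start, and no optimal summit of the window had a MED15 start as its nearest. On the other side of ush, lwr (FBgn0010602, 2L:540599-542580, − strand), which encodes the SUMO-conjugating enzyme, had no optimal summit in its own window.

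The other 10 summits of the window were nearest to a start of ush itself. Before the second ush start, the summit at 485856 had a signal of 551 (rank 262), with 211 in replicate 1 and 338 in replicate 2. A weaker summit at 486066, only 210 bp away in an overlapping region, had 115, with 54.4 and 20.3. After the second start, the summit at 493426 had 102 (rank 4361), close to the end of the list, with 73.9 in replicate 1 and 23.1 in replicate 2. A stretch of 17.2 kb without an optimal summit followed, the longest between any neighbours of the window, where the median distance was 2771 bp.

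The right group, in the long intron before the 2 later ush starts, held 6 summits with signals between 120.1 and 319. The summit at 510644 had 319, with 115 in replicate 1 and 196 in replicate 2, and had the lowest ratio of replicate 1 over replicate 2 among the ush summits, at 0.586. The summit at 520821 had 312, with 166 and 149, and that at 516256 had 259.7, with 126 in each replicate. The ratio of replicate 1 over replicate 2 was 1.11 and 1.00 at these last summits, so that they had nearly equal values in both libraries. The remaining members of the group, at 512259, 522136 and 522972, had 171, 161 and 120.1, and the last of them lies 494 bp upstream of a ush start. The summit at 530452, in the intron behind these starts, had 115, with 55.5 in replicate 1 and 57.9 in replicate 2.

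By position, 13 of the 15 ush summits were inside the gene and 2 upstream of it. Within 500 bp of an annotated start lay 4 of the 15, and over the whole list this was so for 37.6% of the summits. The remaining 11 lay in introns. The summits at 480078 and 522972, counted as near a start, also lie in introns of ush. None of the 15 summit bases fell in an exon, although the 101 bp around 471360 reach an exon of CG4297. Their median signal was 259.7, and 10 of the 15 exceeded the median of all optimal peaks. The 5 summits of the other members had a median of 125, and none of them exceeded it. A signal of 500 or more was reached by 4 of the 15 ush summits, against 320 of the 4434 peaks (7.22%).

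**Figure D3:**
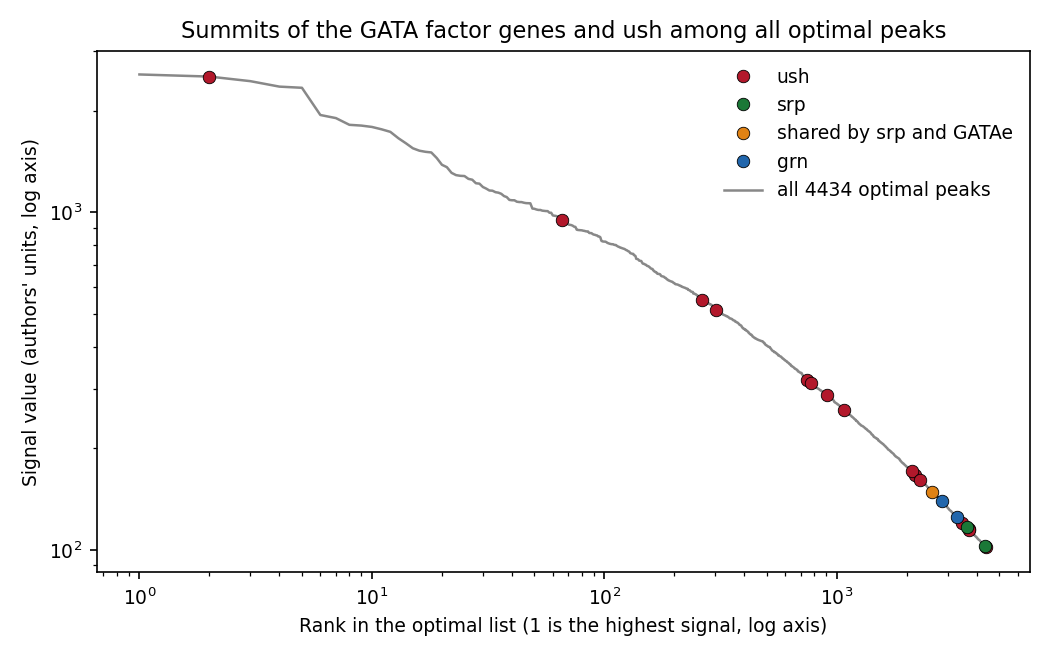
Signal value against rank for all 4434 optimal peaks (grey line, both axes logarithmic), with the summits of the 4 genes that have any marked by colour. The ush summits are spread from rank 2 to rank 4361, and those of srp, GATAe and grn lie between rank 2562 and rank 4314.

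Few genes had as many summits as ush. With 15 or more were 6 genes (0.043%), namely kirre (20), CG1677 (19), sbb (16), and shn, tara and ush with 15 each. The window of ush is also long, at 74.3 kb. Of the 198 genes with a window of this length or longer, 136 (68.7%) had a summit, the median was 2 and 4 had 15 or more. The share of genes with a summit in windows at least as long as their own was 65.4% for pnr, 65.3% for srp, 63.01% for GATAe, 57.5% for GATAd and 67.5% for grn. These shares cover all longer windows too, so that they do not give the share at a gene's own length.

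**Figure D4:**
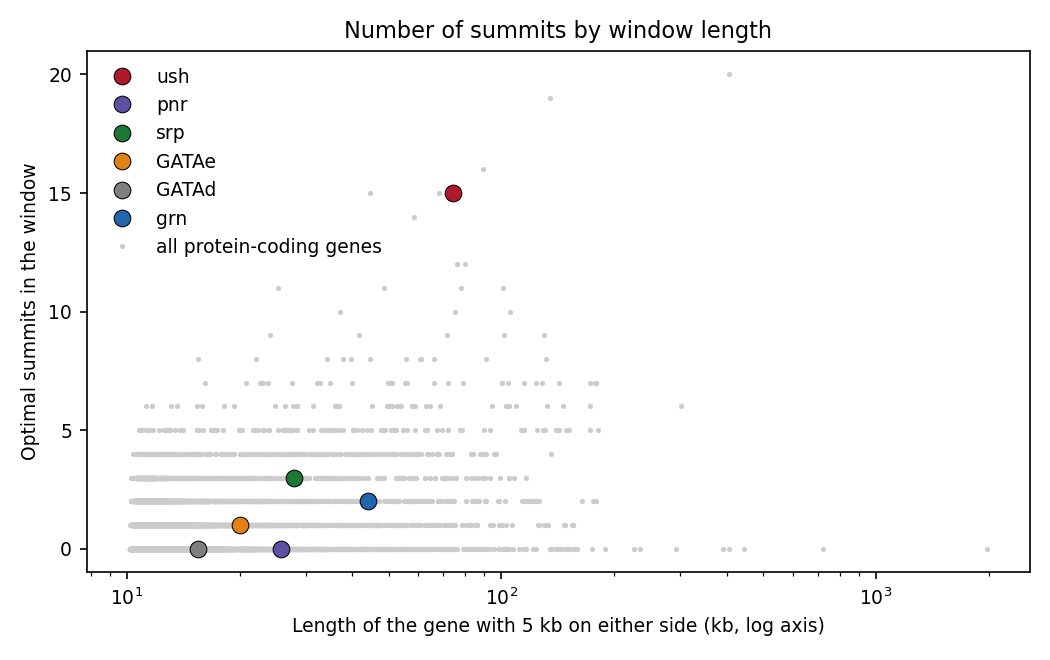
Number of optimal summits in the window of each of the 13945 protein-coding genes (grey) against the length of the window in kb (log axis), with the 6 members in colour. The ush point, at 15, lies near the top of the windows of its length, and pnr and GATAd lie at 0.

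The GATA factor genes srp, GATAe and pnr follow each other on 3R within 55.6 kb and share part of their windows. In front of srp (FBgn0003507, 3R:15986152-16004085, + strand), the summit at 15984645, 1507 bp upstream of the start, had a signal of 117, with 67.2 in replicate 1 and 55.4 in replicate 2. The summit at 15983857, 2295 bp upstream, had 103, with 32.2 in replicate 1 and 57.0 in replicate 2. Both ranked low in the list, at 3613 and 4314, and the higher of these signals exceeds that of 3 of the 15 ush summits.

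Between srp and GATAe (FBgn0038391, 3R:16009105-16019133, + strand), the summit at 16006110 had a signal of 149 (rank 2562), with 82.8 in replicate 1 and 63.7 in replicate 2. It lies 2025 bp behind the end of srp and 2995 bp before the start of GATAe, which is the nearest start, and inside the long non-coding RNA gene lncRNA:CR42839. It is the only optimal summit of GATAe, and the one of the highest signal outside the ush window. Candidates below the list flanked it, with pooled signals of 87.7 at 16005228 and 66.6 at 16007093. A further pooled candidate at 16011895, 379 bp upstream of a later GATAe start, had 68.2, with 19.5 in the region with the nearest summit of each replicate. A second overlapping region of replicate 2, with its summit at 16011757, had 57.2 and rank 3485 in that replicate, while replicate 1 had no other overlapping region.

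At pnr (FBgn0003117, 3R:16026079-16041796, + strand) the nearest optimal summit was the one between srp and GATAe, 19.97 kb away. The strongest pooled candidate at pnr, at 16026141, lies 62 bp behind the first start and had a signal of 56.0 (rank 9547), with 43.1 in replicate 2 and no region in replicate 1. The other pooled candidate had 25.9, with 15.2 in replicate 1 and no region in replicate 2. Neither pooled candidate thus had a region in both replicates. Beyond the end of pnr, both replicates listed overlapping candidates, with signals of 23.8 in replicate 1 and 25.4 in replicate 2. These candidates had ranks of 15215 and 12521 and −log10 q values of 0.524 and 0.728, so they are not called peaks. Their summits, at 16042413 and 16042464, were nearest to the start of Jhbp4, and no pooled candidate lay there.

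The gene grn (FBgn0001138, 3R:8147368-8181444, − strand) had both of its summits in introns. The summit at 8155914, in intron 5 of 8, had a signal of 139.5 (rank 2823), with 52.9 in replicate 1 and 67.4 in replicate 2. The summit at 8171720, in intron 2 of 8, had 125 (rank 3283), with 65.4 in replicate 1 and 61.1 in replicate 2. They lie 25.5 and 9.72 kb into the gene, and the pooled candidate nearest to the start, 867 bp behind it, had 86.8 and stood at rank 5457, outside the optimal list. Both values are below the median of all optimal peaks.

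GATAd (FBgn0032223, 2L:10333734-10339185, + strand) had no pooled candidate. In replicate 2 an intronic region with its summit at 10334988, 1074 bp behind the start, had a signal of 121 and rank 971, while replicate 1 had no region there. In replicate 1 the strongest region of the window, at 10339303, had 64.1 (rank 3979) and was nearest to the start of SamDC, and replicate 2 had none there. The replicate 1 region lies 118 bp beyond the end of GATAd, and its signal is near the lowest of the 4434 strongest, 59.5. The 2 libraries thus had their strongest regions of the window at different places, and neither was found in the other. Of the 4434 strongest regions, 33 of replicate 1 (0.744%) and 66 of replicate 2 (1.49%) overlapped no pooled candidate, as did both of these.

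All 20 member summits overlapped a candidate region in each replicate, as did 96.2% of all optimal peaks. Where several regions of a replicate overlapped, the one with the nearest summit was taken. In replicate 2 that region had rank 21528 at 471360, 17866 at 486066 and 14525 at 493426. An overlap is therefore not by itself a peak in that library. The matched regions were among the 4434 strongest of both replicates for 14 of the 20 and for 11 of the 15 ush summits, against 56.8% of all optimal peaks. Replicate 1 was higher at 13 of the 20 and at 67.7% of all peaks, and the median ratio of replicate 1 over replicate 2 was 1.13 for the members and 1.35 for all peaks. Across summits, the signals of the replicates had a Spearman rho of 0.656 over the 20 member summits, 0.764 over the 15 of ush and 0.378 over 4264 peaks. The points of each share the same 2 libraries and were picked for a high pooled signal, and these rho values are descriptions only.

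The base composition moved with the balance of the replicates. GC content within 50 bp of the summit was 24.8% at 471360, where replicate 1 was 8.67 times as high, and 44.6% at 510644, where it was 0.586 times as high. Over the 20 summits the rho of GC content with the log2 ratio was −0.740, and over 4264 peaks −0.482. Its part in the replicate differences was not tested. The strongest ush summit held 27.7% GC, the members a median of 32.2% and all peaks 33.7%.

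**Figure D5:**
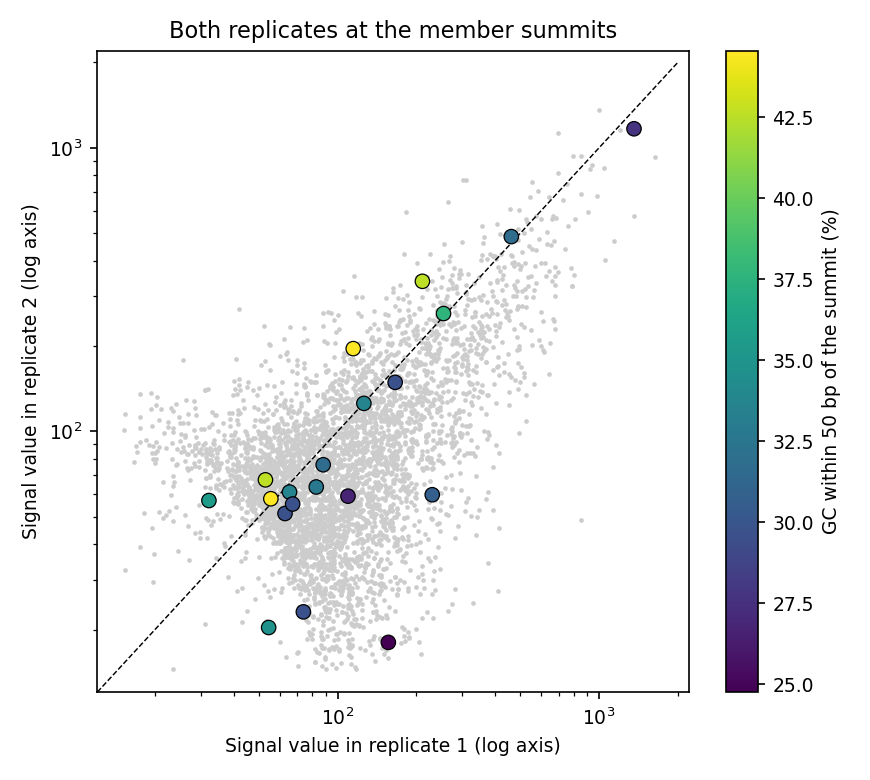
Signal value in replicate 2 (vertical) against replicate 1 (horizontal, both axes logarithmic) at the 20 member summits, coloured by GC content within 50 bp, over all optimal peaks with a region in both replicates (grey), with a dashed line of equality. The strongest ush summit lies at the upper end near the line, and summits of low GC content lie mostly below it, where replicate 1 is higher.

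The 101 bp around each summit were searched on both strands for fixed words. The GATA words AGATAA or AGATAG or TGATAA or TGATAG were found at 8 of the 20 member summits (40%), 6 of them of ush and 2 of srp, and at 22.5% of all optimal peaks. The count depended on the window: within 100 bp of the summit the shares were 40% and 38.9%, and within 25 bp they were 25% and 12.2%. None of the 4 strongest ush summits held a GATA word. At srp, the summit at 15983857 held the word on the other strand at 4 and at 43 bp to the right of the summit, and that at 15984645 held it 27 bp to the left.

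Of the other words, TATA and GAGA words had a higher share at the member summits than over all peaks, and the rest a lower one, all on small counts. The T-box word AGGTGTG was at none of the 20, against 0.586% of all peaks. The forkhead word TAAACA was at 2 (10%, against 16.6%), 1 at the summit between srp and GATAe, in 2 places, and 1 at ush. The homeodomain word TAATTA was at 1, against 8.95%, the TATA word TATAAA at 5 (25%, against 20.1%), and the GAGA word GAGAGAG at 1, against 1.38%. The E-box CANNTG was at 5 (25%, against 36.1%). The DREF word TATCGATA, the Zelda word CAGGTAG and the NK2 word CAAGTG were at none, against 0.857%, 0.406% and 6.07%. Every NK2 word is also an E-box, and TATA and forkhead words can overlap. The only word at the strongest ush summit was a TATA word on the − strand, 29 bp to the right. A match is no site, and the absence of a word says only that its letters are not in the window.

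The peaks most like the strongest ush summit in their pair of replicate signals, by distance on the log2 scale over the 2 libraries, were named by the nearest start. The closest was in an intron of CG11050, with 1316 in replicate 1 and 1135 in replicate 2 at a distance of 0.0626. Ugalt, a sugar nucleotide transporter gene, followed with 1201 and 1152 (0.181), then CG32772 with 1632 and 927 (0.424), px with 995 and 1359 (0.501) and CG14100 with 1049 and 851 (0.590). These 5 are all among the 7 peaks of the highest optimal signal. That follows largely from how they were picked, because the pooled value is near the sum of both replicates.

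Genes that work with the members in the embryo were counted in lists made by function. Of 39 genes, 17 had an optimal summit (43.6%, against 41% of all genes), which is near the share of all genes. Among co-factors and partners, 4 of 7 had one. The strongest was at Mi-2, a chromatin remodeller gene, with 555 (259.7 in replicate 1 and 293 in replicate 2) and nearest to a start of Su(Tpl), followed by tup, a LIM homeodomain factor gene, with 319 at the promoter of CG10602, and CtBP, a corepressor gene, with 199. Among dorsal mesoderm and heart genes, 6 of 11 had one, led by tin with 385, dpp with 271 and Doc2 with 256. The Doc2 summit is shared with Doc3 and is nearest to a start of CG5194. The T-box genes mid and H15 had none. In haemocytes and fat body, 2 of 11 had one, Hml with 189.6 and PPO1 with 122, and gcm and gcm2 had none. The nearest start was that of CG8745 for the Hml summit and that of CG14492 for the PPO1 summit. In the list made for the endoderm, 4 of 6 had one, led by fkh with 719, bin with 389 and Ance with 300.5. The Ance summit lies at the promoter of Smg5, and bin is known as a regulator of the visceral mesoderm and not of the endoderm. Of the proneural and wing disc targets, caup alone of 6 had one, with 135. None of these lists holds a summit as strong as that of ush.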

How the data were processed

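Org-1 ChIP-seq peak lists of 2 biological replicates were used. Per the file descriptions, the authors derived them from each library's alignment and a control alignment. In the deposited lists a region has a signal value, the −log10 of a q value and a summit offset counted from its start. The authors thresholded the optimal list on the irreproducible discovery rate, which compares ranks between replicates. The aligner was not given in the sources used here, nor were the peak caller and the read depth, so no interval is given, and the dm3 lists were not used.

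Summits of the dm6 lists were assigned to genes of Ensembl release 115 and sequence was read from the RefSeq copy of release 6 of the genome, with Python 3.11.15, NumPy 2.4.6, pandas 2.3.3, SciPy 1.17.1 and Matplotlib 3.10.9. Counting, nearest starts and word searches were tested on simulated data. The signal was used only to rank and describe regions, because 2995 optimal peaks share the highest deposited −log10 q value. Regions were matched between lists by an overlap of 1 bp or more. The members, gene lists and words were chosen with earlier results of these data known. Genes named include the members, the neighbours of ush and the genes nearest to the summits or regions described. Named too are the 5 peaks most like the strongest one, and up to 3 genes with and 2 without a summit in each list. Alternatives were each replicate alone, the 1000 strongest peaks, all pooled candidates, other windows, the nearest start, other overlap rules and other word windows.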

Additional observations from a re-analysis of the deposited data

How the results depend on the processing

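No paired analysis was possible because there is 1 group and no test. With each replicate alone, 5 to 5 members had a summit (the range is from the lower to the higher). The member windows held 19 to 23 summits, and the share of all genes was 40.4% to 40.5%. In replicate 1 a GATA word was at 6 of 19 summits (31.6%, against 23.6% of the 4434 strongest regions). In replicate 2 it was at 8 of 23 (34.8%, against 20.2%). The strongest ush signal was 1167 to 1360.5 in the replicates, against 2524, because the pooled value is near the sum of both (the median ratio of sum to pooled signal was 0.997 over all peaks). The 1000 strongest peaks left 1 member (ush) and 7 summits, where 15.02% of all genes had one. All pooled candidates gave 78 summits in 5 members (83.3% of all genes). The gene body alone left 2 members (ush and grn, 11.6% of all genes), and the nearest start alone gave 17.7% of all genes. A word window of 25 bp on either side left 5 summits with a GATA word. With 2 kb on either side, srp kept 1 of its 3 summits and GATAe none. That left 3 members (ush, srp and grn), where 28.0% of all genes had a summit. With 100 bp on either side of the summit the share of all peaks with a GATA word was 38.9%, against 22.5%. The other alternatives moved the number of members, of summits in their windows, of summits in both replicates and of summits with a GATA word by less than 1.5 times. Depth is unknown, and with 2 libraries a difference between replicates has no further check.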

Other observations

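GATAd lies in a stretch of 64.8 kb without a pooled candidate, from 10305823 to 10370628 on 2L, the 46th longest of 29994 distances between neighbouring pooled summits, whose median is 1.70 kb. In replicate 2 a stretch of 133.9 kb without a candidate, the eighth longest, ended at the GATAd region itself. In the 300 kb around GATAd there were 21 pooled candidates (median of all such spans 72), and 66 of 443 spans held as few or fewer. The optimal list had 8 (median 10), and 193 of 443 spans held as few or fewer. Replicate 2 had 25 (median 73), and replicate 1 had 66 (median 70), so that the replicates differed in this span. Of the candidates there, 44 of 66 in replicate 1 (66.7%) and 15 of 25 in replicate 2 (60%) overlapped no pooled candidate, against 23.9% and 27.4% over the whole lists. The cause was not tested. The optimal summit nearest to GATAd, 33.7 kb away at the promoter of CYLD and in the window of the heart gene Hand, had a signal of 132, with 119 in replicate 1 and no region in replicate 2.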
